A study of Homo sapiens with 96 samples.

Results

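The genes described here are 10 members of the BCL2 family, which sets whether a cell under stress commits to apoptosis. They were taken by symbol from the raw count table: BMF, BCL2L11 (the protein BIM), PMAIP1 (NOXA), BBC3 (PUMA), MCL1, BCL2L1 (BCL-XL), BCL2A1 (BFL-1), BCL2, BAX and BAK1. All 10 were found among the 44659 gene entries, and all 10 were among the 14948 that passed the filter on low counts. The libraries came from A375 cells, an established human melanoma line with a mutated BRAF kinase, and were made with QuantSeq, which counts reads near the poly(A) end of transcripts. An 18 h pretreatment was either DMSO or MAPKi, the pair of the BRAF inhibitor vemurafenib at 500 nM and the MEK inhibitor cobimetinib at 500 nM. Cytoplasmic RNA was then taken after 0, 1, 3 and 5 h in one of 4 arms: vehicle, the translation blocker cycloheximide at 100 µg/ml (CHX), the transcription blocker triptolide at 25 µM (T; tryptolide in the labels), or T with CHX (TCHX). This gave 32 groups of 3 libraries, all from the same cell line and all carried through the DMSO or MAPKi pretreatment.

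BCL2 family proteins act at the outer mitochondrial membrane. The effectors BAX and BAK1 form pores there that release cytochrome c. The survival members MCL1, BCL-XL, BFL-1 and BCL2 hold the effectors and their activators in check, and the BH3-only proteins BMF, BIM, NOXA and PUMA bind the survival members or activate the effectors. In melanoma cells with mutated BRAF, the ERK pathway is known to restrain BIM and BMF, and BFL-1 is a survival member favoured by the melanocyte lineage factor MITF.

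Total counts ran from 2381351 to 12520154 per library, with a median of 7143396. The ERK targets DUSP6, SPRY2, SPRY4, ETV4 and ETV5 summed to between 328 and 1831 CPM (reads relative to the TMM-scaled library size) over the DMSO libraries and to between 3.04 and 21.6 CPM over the MAPKi libraries. Of 8 markers of the melanocyte lineage, MITF and SOX10 were present at 352 and 237 CPM in DMSO at 0 h. In MAPKi at 0 h they were at 487 and 336 CPM. S100B was at 301 CPM in DMSO and lower in MAPKi, at 215 CPM. PMEL, TYRP1 and MLANA were at 1.15, 0.210 and 0.158 CPM in DMSO and at 15.3, 2.82 and 1.20 CPM in MAPKi. TYR never exceeded 9 counts. The summed level of the 8 markers ran from 620 to 1018 CPM in DMSO and from 2089 to 3825 CPM in MAPKi. The rise was mostly through DCT (54.9 and 2131 CPM at 0 h). Markers of keratinocytes, fibroblasts and blood cells summed to at most 4.70, 9.48 and 1.90 CPM in any library, with KRT5, KRT1 and CD3E at 0 counts throughout. The part of the melanocyte markers and of these others in the results was not tested. In bulk RNA a change in the share of cells with a transcript and a change in its amount per cell cannot be told apart.

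The promoters of the 3 genes with the largest MAPKi differences are shown first, as 250 bases before the RefSeq start (GRCh38.p14). Capitals would mark any of 5 searched motifs, and these 3 windows held none of them on either strand.
BMF, chr15:40108880-40109129, minus strand: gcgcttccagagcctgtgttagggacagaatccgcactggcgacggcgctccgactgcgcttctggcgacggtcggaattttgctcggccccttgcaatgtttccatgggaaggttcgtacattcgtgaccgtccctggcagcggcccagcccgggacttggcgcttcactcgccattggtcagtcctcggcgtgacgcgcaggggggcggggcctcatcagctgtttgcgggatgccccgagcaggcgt
PMAIP1, chr18:59899746-59899995, plus strand: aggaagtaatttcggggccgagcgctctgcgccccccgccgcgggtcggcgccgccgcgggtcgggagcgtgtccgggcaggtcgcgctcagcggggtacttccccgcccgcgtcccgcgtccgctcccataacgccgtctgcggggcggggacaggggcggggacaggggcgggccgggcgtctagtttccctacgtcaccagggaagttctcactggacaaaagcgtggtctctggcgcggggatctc
BCL2A1, chr15:79971197-79971446, minus strand: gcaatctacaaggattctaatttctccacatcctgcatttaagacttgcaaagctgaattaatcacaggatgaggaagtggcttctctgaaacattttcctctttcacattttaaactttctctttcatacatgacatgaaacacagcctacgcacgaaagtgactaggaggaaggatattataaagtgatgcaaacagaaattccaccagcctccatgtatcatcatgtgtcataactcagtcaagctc
The motifs were the FOXO site GTAAACA, the cyclic AMP response element TGACGTCA, the AP-1 site TGANTCA, the ETS site CCGGAAGT and the E-box CACGTG, which were present in 2.98%, 1.65%, 6.57%, 3.42% and 6.34% of 35116 promoter windows of that length. BMF had 26 CpG dinucleotides and PMAIP1 had 36, against a median of 11, whereas BCL2A1 had 2. A second BMF start in RefSeq, with the window chr15:40106967-40107216, had 0. Among the other members, the BCL2L11 window held 1 FOXO motif, the BBC3 window held 1 AP-1 motif and 1 E-box, and the BAX window held 4 E-boxes. A match describes these letters only and does not show that a factor bound there.

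The 3′ untranslated regions are shown because several of these mRNAs were lost quickly after triptolide. Each line is the 25-base stretch with the most ATTTA pentamers, an element known from short-lived mRNAs, with the pentamers in capitals (GRCh38, MANE Select transcripts of GENCODE).
MCL1, chr1:150576219-150576243, minus strand: ctaATTTAactggtgaaATTTAaag
BCL2L11, chr2:111167093-111167117, plus strand: tatATTTAttttctgcttATTTAat
PMAIP1, chr18:59904220-59904244, plus strand: tATTTAtggtctaatttgtATTTAa
BMF, chr15:40089687-40089711, minus strand: aaccgggattATTTAcagcagccac
BCL2, chr18:63128355-63128379, minus strand: aaaaagATTTATTTATTTAagacag
MCL1 had 10 pentamers in a region of 2817 bases, BCL2 had 13 in 5279, BCL2L11 had 8 in 4213, BMF had 5 in 3897, PMAIP1 had 5 in 1552 and BCL2L1 had 3 in 1491. BBC3, BCL2A1, BAX and BAK1 had 0, in regions of 978, 175, 162 and 1251 bases. The whole BBC3 gene lies at chr19:47220822-47232766 (minus strand), BAX at chr19:48954815-48961798 (plus strand) and BAK1 at chr6:33572547-33580293 (minus strand). At least 1 pentamer was present in 68.6% of 18709 such regions, so that its presence alone does not set these genes apart.

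MAPKi moved BH3-only and survival genes in both directions. At 0 h in the vehicle arm, BMF, BBC3 and BCL2A1 were higher in MAPKi than in DMSO, PMAIP1, MCL1 and BCL2 were lower, and BCL2L11, BCL2L1, BAX and BAK1 did not pass the test. These 6 of 10 calls stand beside 45.9% of all genes tested (21.9% higher and 24.0% lower). The median log2 difference was 0.06 over the 10 genes and 0.03 over all genes. edgeR's quasi-likelihood test with Benjamini-Hochberg adjustment over all genes, two-sided, was used for these calls. The labels do not say that libraries of a group came from separate cultures, so p-values measure the spread between libraries, which may be technical.

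**Figure D1:**
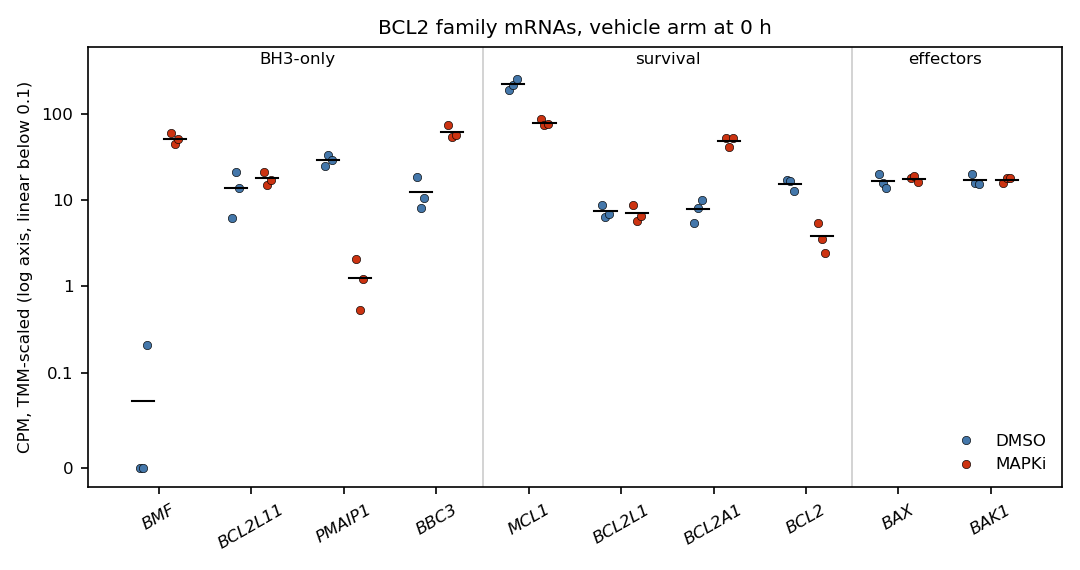
Level of the 10 mRNAs in the vehicle arm at 0 h, in TMM-scaled CPM on an axis that is logarithmic above 0.1 and linear below. Points are the 3 libraries of DMSO (blue) and MAPKi (red), and bars are means. BMF, BBC3, BCL2A1, PMAIP1, MCL1 and BCL2 show no overlap between pretreatments. The share of all genes without overlap was not counted.

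BMF, a BH3-only protein that binds the survival members, went from almost no reads to one of the higher levels of the family. The DMSO libraries at 0 h had 0, 0 and 2 BMF counts, whereas the MAPKi libraries had 442, 249 and 378 counts (60.6, 44.5 and 50.9 CPM). The groups did not overlap at any of the 4 times. With 2 counts in DMSO against 1069 in MAPKi, the ratio of scaled counts was 544, with an exact 95% interval of 150 to 4500 that covers counting error only (adjusted p = 2.04e-22, edgeR). The DMSO libraries had 9, 3 and 14 counts at 3 h and 3, 2 and 8 at 5 h, where the ratios were 44.6 (30.2 to 68.6) and 63.9 (37.2 to 120.0).

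The other BH3-only genes did not follow BMF as a group. BBC3, which encodes PUMA, was at 18.7, 8.14 and 10.6 CPM in DMSO and at 73.9, 54.2 and 57.8 CPM in MAPKi at 0 h. Every MAPKi library was thus above every DMSO library, with a log2 difference of 2.35 ± 0.24 (SE; adjusted p = 5.26e-14, edgeR). PMAIP1, which encodes the MCL1-binding protein NOXA, went the other way: 24.7, 33.2 and 29.0 CPM in DMSO against 2.06, 0.537 and 1.21 CPM in MAPKi. Its log2 difference was -4.44 ± 0.34 (adjusted p = 2.62e-19, edgeR), and the MAPKi values rest on 15, 3 and 9 counts. BCL2L11, whose BIM protein activates the effectors and neutralizes all survival members, spread widely in DMSO at 0 h (6.22, 21.3 and 14.0 CPM). MAPKi values of 21.5, 15.0 and 17.2 CPM overlapped that spread, and the difference of 0.36 ± 0.27 was not called (adjusted p = 0.285, edgeR). Without the replicate 2 libraries it was called (adjusted p = 0.022).

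Averaged over the 4 vehicle times, BCL2L11 was higher in MAPKi by 0.41 ± 0.14 on the log2 scale (adjusted p = 5.56e-03, edgeR). The BCL2L11 groups separated only at 3 h (13.6, 13.7 and 15.1 CPM against 16.5, 15.5 and 18.6 CPM) and at 5 h (8.33, 7.90 and 8.46 CPM against 12.9, 12.97 and 18.2 CPM). Without the replicate 1 libraries its adjusted p was 0.093, and without those of replicate 3 it was 0.0559. In this average 8 of 10 members were called, beside 69.0% of all genes (35.8% higher and 33.2% lower). BCL2L11 lies opposite the long non-coding gene MIR4435-2HG, which had 357 to 4613 counts per library. The strand setting of the authors' counting is not stated, so reads of the 2 genes may have been mixed.

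The survival genes also split. MCL1, a short-lived survival protein, fell from 192, 215 and 254 CPM in DMSO to 88.0, 73.9 and 77.1 CPM in MAPKi. No MAPKi library reached the lowest DMSO library at any time, and the log2 difference at 0 h was -1.47 ± 0.18 (adjusted p = 8.33e-11, edgeR). BCL2, the founding survival member, was at 17.2, 16.6 and 12.7 CPM in DMSO and at 5.48, 3.58 and 2.43 CPM in MAPKi, a log2 difference of -2.00 ± 0.28 (adjusted p = 3.13e-09, edgeR). BCL2A1 rose from 5.39, 8.14 and 10.1 CPM to 52.8, 41.0 and 53.2 CPM, a log2 difference of 2.60 ± 0.22 (adjusted p = 1.23e-17, edgeR). In DMSO the mean of BCL2 was above that of BCL2A1 (15.5 ± 2.45 and 7.86 ± 2.34 CPM, SD, n = 3), and in MAPKi the order was opposite (3.83 ± 1.54 and 49.0 ± 6.95 CPM). QuantSeq counts 1 end per transcript, so CPM of different genes can be set side by side without a length term.

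BCL2L1 and the effectors showed little difference at 0 h. BCL2L1 was at 8.92, 6.42 and 6.99 CPM in DMSO and at 8.91, 5.72 and 6.60 CPM in MAPKi, with a 95% interval of the log2 difference from -0.59 to 0.48. BAX was at 19.9, 16.0 and 13.8 CPM against 18.2, 19.0 and 16.2 CPM, with an interval from -0.36 to 0.59. BAK1 was at 20.1, 16.0 and 15.5 CPM against 15.8, 17.9 and 17.9 CPM, with an interval from -0.42 to 0.44. For these 3 genes the libraries of the pretreatments were interleaved at 0 h. Over all vehicle times BCL2L1 was not called (0.24 ± 0.14, adjusted p = 0.109, edgeR) but was without replicate 3 and with total counts. The BAK1 groups separated only at 5 h, with 18.1 to 28.1 CPM in DMSO and 14.4 to 16.0 CPM in MAPKi. Over all vehicle times BAK1 was called lower (log2 -0.27 ± 0.11, adjusted p = 0.0262, edgeR). That call was lost without replicate 1 (log2 -0.06, adjusted p = 0.729) and without replicate 3 (adjusted p = 0.0598), and also with scaling by total counts (log2 -0.12, adjusted p = 0.306), which moved the median of all genes from 0.05 to 0.20.

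The vehicle arm itself changed little over 5 h. edgeR called 0 of 10 members between 5 h and 0 h in DMSO and 0 of 10 in MAPKi, beside 1.06% and 3.34% of all genes, and DESeq2 also called 0 in each. At an unadjusted p under 0.05 there were 3 members in DMSO (BMF, BCL2L11 and BAK1) and 3 in MAPKi (BCL2A1, BCL2 and BAX). Over all 14948 genes there were 1805 in DMSO and 2223 in MAPKi at that threshold. BCL2A1 in MAPKi had means of 49.0 CPM at 0 h and 33.2 CPM at 5 h (adjusted p = 0.0849, edgeR), and BCL2 had 3.83 and 6.98 CPM (adjusted p = 0.0741, edgeR). Between the arms at 0 h, 0 of 10 members were called in T, CHX or TCHX against vehicle by edgeR or DESeq2, beside 0.0% of all genes in each. At an unadjusted p under 0.05 there were 0, 0 and 1 members, the last being BCL2 in TCHX, beside 870, 441 and 659 of 14948 genes.

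Cycloheximide raised a common set of BH3-only genes and, by pretreatment, different survival genes. In DMSO at 3 and 5 h, MCL1, BMF, PMAIP1 and BBC3 rose against vehicle, which is 4 of 10 members higher and 0 lower, beside 18.3% of all genes higher and 13.5% lower. In MAPKi, PMAIP1, BBC3, BMF and BCL2A1 rose, again 4 higher and 0 lower, beside 15.9% of all genes higher and 13.9% lower. The median log2 difference of the 10 genes was 0.10 in DMSO and 0.26 in MAPKi, against 0.01 and -0.01 over all genes. After 1 h of CHX, 0 of 10 were called by edgeR and by DESeq2 in either pretreatment, beside 0.0803% and 0.0736% of all genes. At an unadjusted p under 0.05 there was 1 member in DMSO (BBC3) and 2 in MAPKi (BMF and BCL2). Over all 14948 genes there were 704 in DMSO and 1427 in MAPKi at that threshold.

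MCL1 showed the largest CHX rise of the family in DMSO and much less in MAPKi. In DMSO the CHX libraries had 978, 1034 and 1128 CPM at 3 h, and at 5 h they had 1339, 1345 and 1528 CPM. The vehicle libraries had 152, 221 and 253 CPM at 3 h and 186, 162 and 216 CPM at 5 h. All CHX libraries were thus several-fold above all vehicle libraries, with a log2 difference of 2.61 ± 0.13 over both times (adjusted p = 8.55e-30, edgeR). In MAPKi the CHX libraries had 101, 127 and 116 CPM at 3 h and 88.3, 109 and 96.3 CPM at 5 h, against vehicle values of 89.5, 83.8 and 99.4 CPM and of 82.2, 76.9 and 94.2 CPM. CHX libraries were above vehicle libraries at 3 h and interleaved with them at 5 h. The log2 difference in MAPKi was 0.27 ± 0.13 and was not called (adjusted p = 0.0954, edgeR), though 3 of 8 alternatives called it, 1 of them without the replicate 3 libraries. The test of the difference between pretreatments gave -2.34 ± 0.18 (adjusted p = 3.65e-18, edgeR), and it was called in all 8 alternatives, which ran from -2.45 to -2.19.

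**Figure D2:**
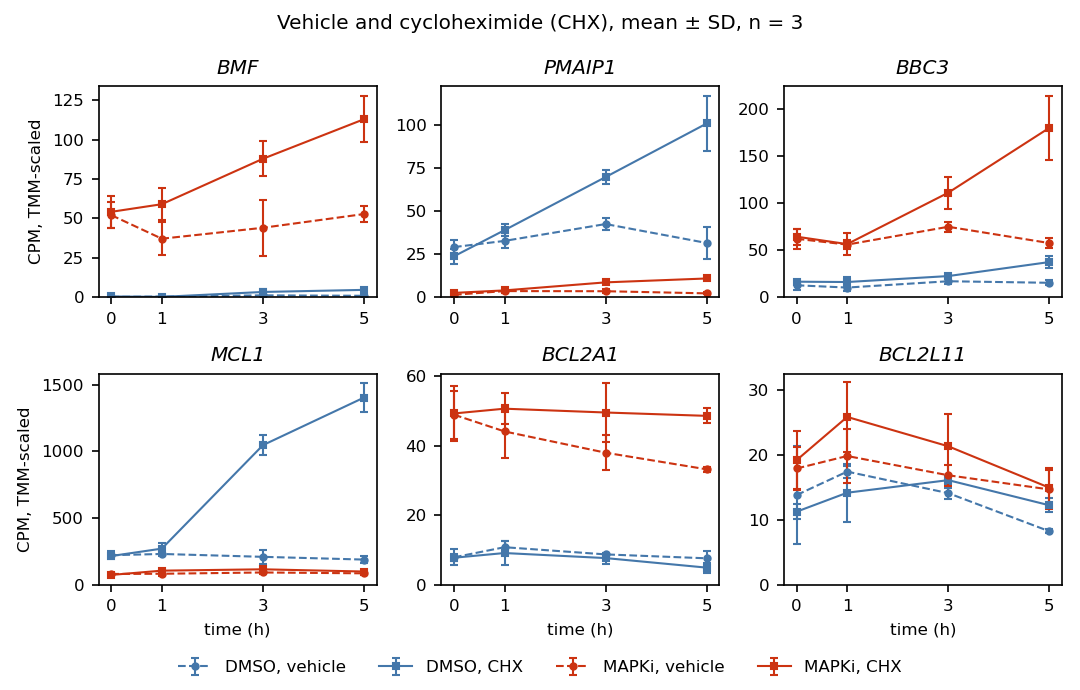
Level of 6 members over time in TMM-scaled CPM on linear axes, for vehicle (dashed, circles) and CHX (solid, squares) after DMSO (blue) or MAPKi (red), as mean ± SD of 3 libraries. MCL1 reached a mean of 1404 CPM after 5 h of CHX in DMSO and 97.9 CPM in MAPKi, while BMF, PMAIP1 and BBC3 rose in both pretreatments.

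BMF, PMAIP1 and BBC3 rose with CHX from very different starting levels. BBC3 reached 44.9, 33.5 and 33.2 CPM after 5 h of CHX in DMSO (vehicle 12.8, 18.0 and 14.5 CPM) and 213, 145 and 183 CPM in MAPKi (vehicle 62.2, 52.1 and 57.8 CPM). No CHX library overlapped the vehicle libraries of its pretreatment. Over 3 and 5 h the BBC3 differences were 0.86 ± 0.17 in DMSO (adjusted p = 1.90e-05, edgeR) and 1.11 ± 0.15 in MAPKi (adjusted p = 2.65e-09, edgeR). PMAIP1 reached 83.5, 115 and 104 CPM in DMSO (vehicle 20.7, 35.2 and 38.1 CPM) and 10.98, 11.6 and 9.72 CPM in MAPKi (vehicle 2.15, 2.67 and 1.51 CPM). Its log2 differences were 1.20 ± 0.17 (adjusted p = 9.26e-09, edgeR) and 1.83 ± 0.22 (adjusted p = 2.28e-10, edgeR). The PMAIP1 libraries with CHX in MAPKi therefore stayed below the vehicle libraries in DMSO.

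BMF with CHX reached 20, 22 and 58 counts at 5 h in DMSO (3.25, 4.91 and 5.43 CPM), against 3, 2 and 8 counts with vehicle. In MAPKi it reached 97.8, 127 and 114 CPM against 49.6, 49.7 and 58.8 CPM. Both pretreatments showed CHX libraries above vehicle libraries without overlap at 5 h, with log2 differences of 2.02 ± 0.39 (adjusted p = 1.91e-05, edgeR) and 1.04 ± 0.19 (adjusted p = 9.13e-06, edgeR) over both times. The difference between pretreatments was not called for BMF (-0.98, 95% interval -1.86 to -0.11, adjusted p = 0.156), PMAIP1 (0.63, 0.09 to 1.18, adjusted p = 0.141) or BBC3 (0.25, -0.19 to 0.68, adjusted p = 0.555). Without the low-count filter it was called for BMF (adjusted p = 0.0247).

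BCL2A1 was the other member whose CHX response differed between pretreatments, by 0.84 ± 0.22 on the log2 scale (adjusted p = 4.79e-03, edgeR). These 2 calls stand beside 11.2% of all genes (4.64% higher and 6.59% lower). In MAPKi, BCL2A1 had 48.6, 50.8 and 46.5 CPM after 5 h of CHX and 33.9, 33.2 and 32.6 CPM after 5 h of vehicle. In DMSO it had 3.74, 4.46 and 6.45 CPM with CHX and 5.40, 9.27 and 8.06 CPM with vehicle, which overlapped. The rise in MAPKi over 3 and 5 h was 0.46 ± 0.13 (adjusted p = 4.55e-03, edgeR), and without replicate 3 its adjusted p was 0.0507. BCL2L11, BCL2L1, BCL2, BAX and BAK1 were not called with CHX in either pretreatment, with log2 differences from -0.40 to 0.38. In DMSO, scaling by total counts also called BCL2 and BAX.

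Triptolide showed which of these mRNAs persist without new transcription. Levels after T or TCHX are given as percent of the vehicle arm at 0 h, after scaling to 36 genes that rose in relative terms at both 3 and 5 h of triptolide. The study's methods word this rule as 3 or 5 h, which gave 526 genes. With these, BCL2A1 lost its call in the test of loss between pretreatments (adjusted p = 0.0545, edgeR). BAX lost its call in TCHX against T in MAPKi (adjusted p = 0.0778, edgeR). It also lost that in the TDD index described further on (unadjusted p = 0.115, t test in a linear model). None of the 10 members was among the 36. In DMSO, 7 of 10 members fell at 3 and 5 h of T, beside 48.7% of all genes lower and 1.30% higher. In MAPKi, 9 of 10 fell, beside 56.1% of all genes lower and 1.28% higher. The median log2 difference of the 9 members other than BMF was -1.16 in DMSO and -1.31 in MAPKi, against -0.47 and -0.59 over all genes. With TMM scaling the medians over all genes were 0.00 and 0.05, the shares of all genes called higher were 12.5% and 19.6% and those called lower 20.7% in each, and 6 members fell in each pretreatment. After 1 h of T, 0 of 10 were called by edgeR and by DESeq2 in either pretreatment, beside 0.883% and 1.61% of all genes. At an unadjusted p under 0.05 there were 2 members in DMSO (MCL1 and BCL2) and 3 in MAPKi (BCL2L11, BBC3 and MCL1). Over all 14948 genes there were 1507 in DMSO and 1936 in MAPKi at that threshold.

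**Figure D3:**
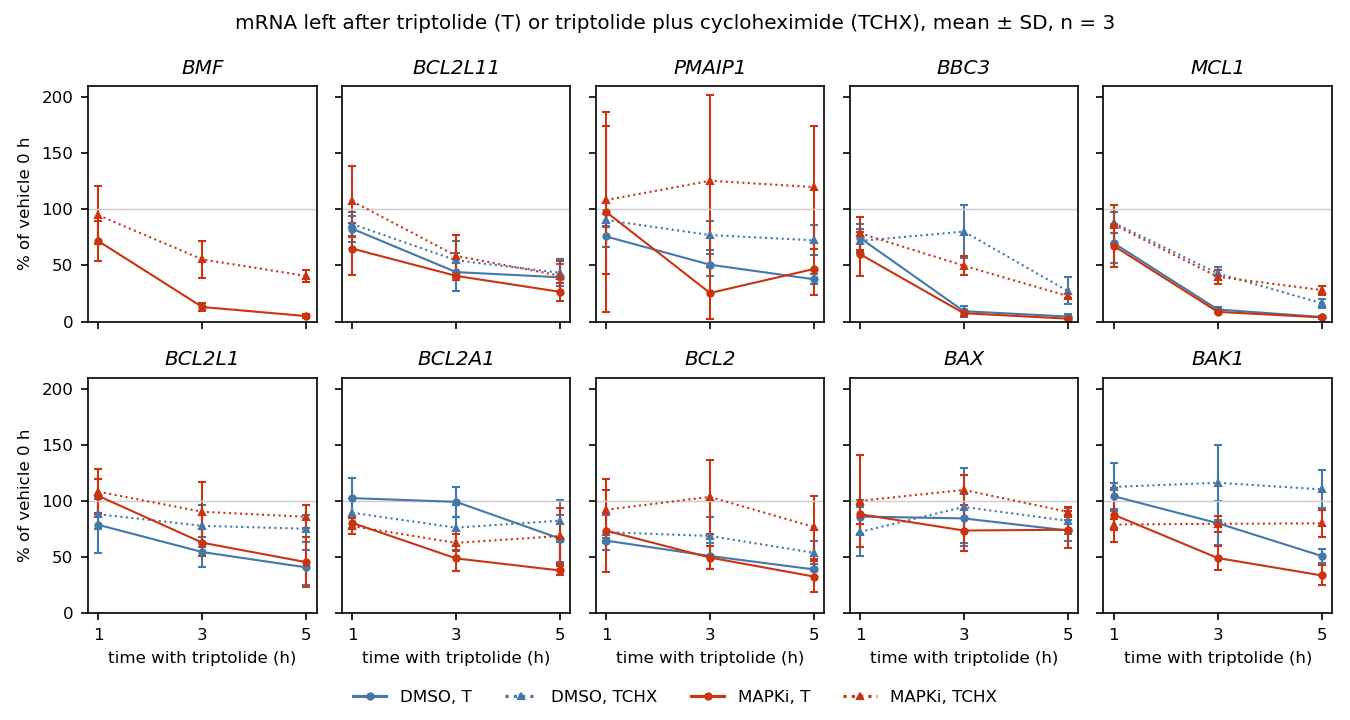
Level of each mRNA after 1, 3 and 5 h of triptolide (T, solid, circles) or triptolide plus cycloheximide (TCHX, dotted, triangles), as percent of the mean vehicle level at 0 h, mean ± SD of 3 libraries after DMSO (blue) or MAPKi (red). MCL1, BBC3 and BMF fell to under 5% by 5 h of T, and TCHX lay above T for them; BMF in DMSO was too low to be plotted.

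MCL1, BBC3 and BMF were lost fastest. MCL1 was at 5.32%, 4.17% and 2.71% of its initial level after 5 h of T in DMSO and at 4.01%, 4.71% and 2.52% in MAPKi. BBC3 was at 6.33%, 1.69% and 5.38% in DMSO and at 2.50%, 2.90% and 2.31% in MAPKi. BMF in MAPKi was at 3.54%, 3.91% and 7.17%. The pretreatments overlapped for MCL1, and the medians over all genes were 65.3% in DMSO and 59.4% in MAPKi. The log2 differences over 3 and 5 h were -3.92 ± 0.16 and -4.09 ± 0.18 for MCL1 (adjusted p = 2.91e-36 and 2.54e-34, edgeR) and -3.85 ± 0.30 and -4.52 ± 0.22 for BBC3 (adjusted p = 6.02e-19 and 1.97e-30, edgeR). For BMF in MAPKi it was -3.69 ± 0.26 (adjusted p = 1.46e-21, edgeR). BMF in DMSO was at or near the floor of 3 counts per library, so no fold is given there.

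BCL2L11, PMAIP1, BCL2L1 and BCL2 fell to intermediate levels. After 5 h of T in DMSO the means were 39.5% ± 12.04, 37.7% ± 4.65, 40.8% ± 15.6 and 38.9% ± 1.25 (SD, n = 3) in that order, all called lower. In MAPKi they were 26.5% ± 7.90, 46.8% ± 23.1, 45.4% ± 22.2 and 32.6% ± 14.2, and over 3 and 5 h these too were called lower. The MAPKi values of PMAIP1 rest on 0 to 9 counts per library. Without the replicate 1 libraries, BCL2L1 and BCL2 in MAPKi were no longer called (adjusted p = 0.103 and 0.0801, edgeR). With TMM scaling the calls of PMAIP1, BCL2L1 and BCL2 in MAPKi and of BAK1 in DMSO were lost, with the same sign.

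BAX had the highest mean left after 5 h of T in both pretreatments, though in DMSO its libraries overlapped those of BCL2A1, whose mean was higher at 3 h (99.2% and 84.4%). It was at 79.7%, 78.0% and 63.2% of its initial level after 5 h of T in DMSO and at 93.1%, 63.7% and 66.1% in MAPKi, with means of 73.7% ± 9.07 and 74.3% ± 16.3 (SD, n = 3). Its log2 differences of -0.33 ± 0.22 and -0.43 ± 0.22 were not called (adjusted p = 0.213 and 0.0834, edgeR), though the latter was called in 2 of 10 alternatives, 1 of them without replicate 1. BAK1, the other effector, was at 57.8%, 46.3% and 48.7% in DMSO and at 41.2%, 23.7% and 35.9% in MAPKi, and was called lower in both (-0.63 ± 0.20 and -1.31 ± 0.20, adjusted p = 5.65e-03 and 3.62e-08, edgeR). BCL2A1 was at 50.03%, 90.3% and 58.9% in DMSO (not called, adjusted p = 0.152) and at 34.8%, 37.2% and 41.9% in MAPKi (log2 -1.22 ± 0.16, adjusted p = 6.85e-10, edgeR).

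The loss differed between pretreatments for BCL2A1 by -0.88 ± 0.27 on the log2 scale, that is, more loss in MAPKi (adjusted p = 0.0479, edgeR). The MAPKi libraries lay below the DMSO libraries at 5 h without overlap. The call did not hold up: 7 of 10 alternatives lost it, among them the fits without replicate 1, 2 or 3 (adjusted p from 0.12 to 0.52), with the same sign in each. BMF was the other of 2 members called in this test, beside 2.76% of all genes lower and 0.415% higher, but with DMSO counts at the floor its fitted difference is not a fold, and without replicate 1 it was not called (adjusted p = 1.0). For MCL1 and BBC3 the 95% intervals of the difference ran from -0.65 to 0.31 and from -1.54 to 0.20.

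Cycloheximide added to triptolide left more of several of these mRNAs in place. In DMSO, 5 of 10 members were higher in TCHX than in T at 3 and 5 h, beside 28.4% of all genes higher and 0.468% lower. In MAPKi, 10 of 10 were higher, beside 41.4% of all genes higher and 0.535% lower. The median over the 9 members other than BMF was 0.69 in DMSO and 0.98 in MAPKi, against 0.23 and 0.34 over all genes. With TMM scaling the medians over all genes were 0.00 and -0.05, the shares called were 15.0% higher and 6.98% lower in DMSO and 18.9% higher and 15.1% lower in MAPKi, and 4 and 6 members were called.

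BBC3 and MCL1 showed large differences in both pretreatments. At 3 h BBC3 was at 0.554, 1.27 and 1.93 CPM (scaled to stable genes) with T in DMSO and at 14.5, 8.51 and 9.65 CPM with TCHX. In MAPKi it was at 3.68, 4.47 and 6.64 CPM with T and at 34.0, 26.9 and 38.3 CPM with TCHX. No libraries overlapped, and the log2 differences over 3 and 5 h were 2.76 ± 0.29 and 2.94 ± 0.21 (adjusted p = 6.55e-13 and 4.50e-21, edgeR). MCL1 was at 26.8, 29.7 and 19.4 CPM with T at 3 h in DMSO and at 92.1, 118 and 93.8 CPM with TCHX, and in MAPKi at 8.66, 7.28 and 6.20 CPM against 29.5, 33.2 and 39.7 CPM. Its log2 differences were 2.01 ± 0.14 and 2.51 ± 0.17 (adjusted p = 2.32e-21 and 4.79e-23, edgeR). MCL1 thus kept more mRNA with CHX under triptolide in both pretreatments. Without triptolide, and with TMM scaling, its CHX rise was called in DMSO and not in MAPKi. The 2 kinds of comparison use different scalings and were not tested against each other. Scaled to stable genes, MCL1 in MAPKi had means of 138.6 ± 11.48 and 141.9 ± 8.352 CPM (SD, n = 3) after 3 and 5 h of CHX. With vehicle its means were 94.38 ± 10.96 and 94.13 ± 11.15 CPM. In DMSO the CHX means on that scale were 1175 and 1711 CPM, against 215.8 and 206 CPM with vehicle. The difference between CHX and vehicle was not tested on that scale.

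BMF in MAPKi was at 3.54%, 3.91% and 7.17% of its initial level after 5 h of T and at 38.4%, 36.7% and 46.8% after TCHX. The libraries were far apart, and the log2 difference over both times was 2.60 ± 0.24 (adjusted p = 5.62e-16, edgeR). In DMSO, TCHX libraries had 0 to 2 BMF counts and T libraries 0 to 5, so no fold is given. PMAIP1 was higher with TCHX by 0.77 ± 0.17 in DMSO and by 1.88 ± 0.37 in MAPKi (adjusted p = 2.67e-04 and 1.31e-05, edgeR). The MAPKi value of PMAIP1 rests on 0 to 9 counts per T library and 4 to 23 counts per TCHX library. In DMSO its libraries at 5 h were at 10.1, 12.1 and 12.9 CPM with T and at 23.1, 26.3 and 18.0 CPM with TCHX, without overlap. BAK1 was higher by 0.81 ± 0.16 and 0.98 ± 0.17 (adjusted p = 3.17e-05 and 1.04e-06, edgeR), and with TCHX it stayed at 128%, 94.8% and 108% of its initial level in DMSO at 5 h.

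The remaining TCHX differences were smaller. BCL2L1 was called in DMSO (0.69 ± 0.21, adjusted p = 8.33e-03, edgeR) and in MAPKi (0.75 ± 0.21, adjusted p = 2.16e-03, edgeR). Each of these calls was lost in 2 of 3 fits that left out a replicate: without replicate 2 or 3 in DMSO (adjusted p = 0.0565 and 0.194) and without replicate 1 or 2 in MAPKi (adjusted p = 0.123 and 0.0896). BCL2 (1.08 ± 0.23) and BCL2A1 (0.60 ± 0.14) were called in MAPKi and not in DMSO, where their adjusted p were 0.0691 and 0.967. With TMM scaling the MAPKi call of BCL2A1 was lost (adjusted p = 0.234). BCL2L11 (0.54 ± 0.20, adjusted p = 0.0257, edgeR) and BAX (0.43 ± 0.18, adjusted p = 0.044, edgeR) were called in MAPKi. BCL2L11 lost the call without replicate 1 or 3 (adjusted p = 0.0992 and 0.479), and BAX without replicate 2 or 3 (adjusted p = 0.294 and 0.19). The difference between pretreatments was called for BMF, 1 of 10 members beside 6.82% of all genes higher and 0.294% lower, with DMSO at the floor and with the call lost without replicate 1 (adjusted p = 1.0). It was not called for PMAIP1 (1.12, 95% interval 0.31 to 1.92, adjusted p = 0.0877), BCL2A1 (0.59, 0.16 to 1.01, adjusted p = 0.094), BCL2 (0.64, 0.06 to 1.22, adjusted p = 0.218) or MCL1 (0.50, 0.07 to 0.93, adjusted p = 0.185).

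**Figure D4:**
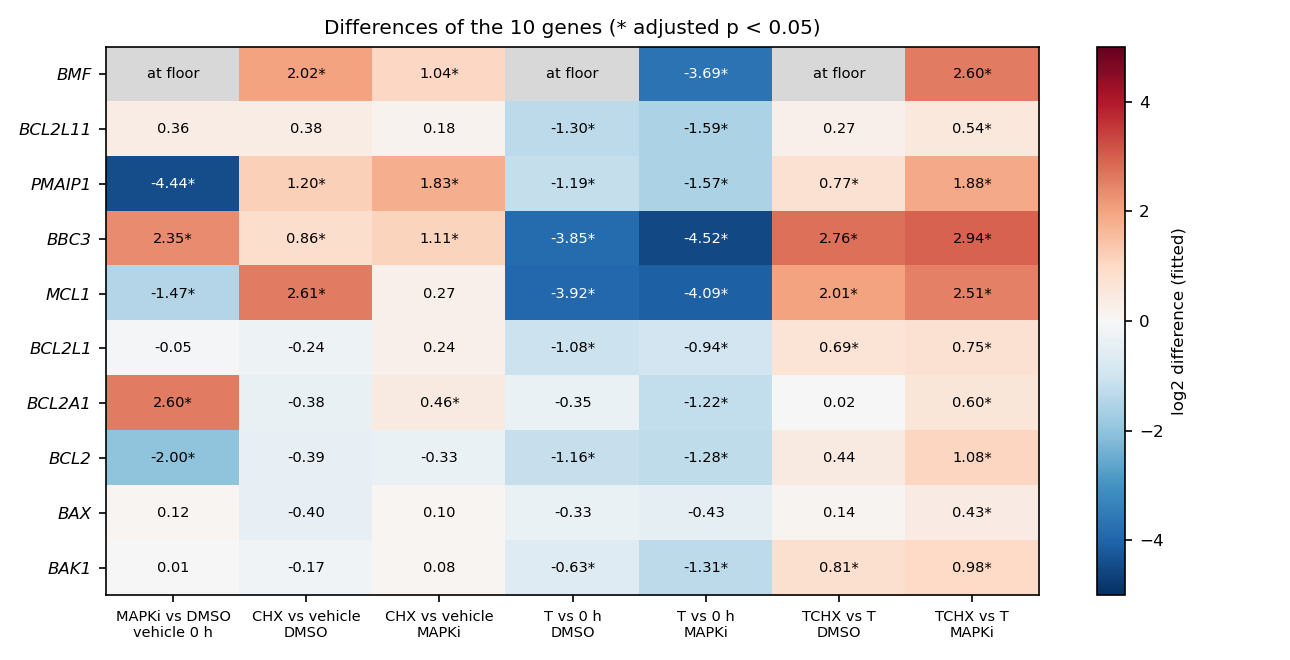
Fitted log2 differences of the 10 genes in 7 comparisons, with red for higher and blue for lower; the CHX, T and TCHX comparisons average 3 and 5 h, and asterisks mark adjusted p under 0.05 (edgeR). Grey cells are BMF where the DMSO libraries were at or near the floor; scaled to stable genes, the T columns are negative and the TCHX columns positive for every gene shown.

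Adding triptolide to cycloheximide was a comparison chosen after the values had been seen. It lowered the genes that CHX had raised, but also others that CHX had not been called to raise. These were BCL2L11 in both pretreatments (log2 -1.17 in DMSO and -1.34 in MAPKi) and MCL1, BCL2L1, BCL2 and BAK1 in MAPKi. Against CHX alone at 3 and 5 h, 5 of 10 members were lower in DMSO, beside 42.8% of all genes lower and 3.31% higher, and 9 of 10 in MAPKi, beside 55.5% lower and 1.87% higher. With TMM scaling the shares of all genes were 20.7% higher and 24.2% lower in DMSO and 24.0% higher and 21.5% lower in MAPKi. The log2 difference of MCL1 was -4.50 ± 0.14 in DMSO and -2.30 ± 0.13 in MAPKi. That of BBC3 was -2.45 ± 0.19 and -3.08 ± 0.17, and that of PMAIP1 -2.08 ± 0.17 and -2.83 ± 0.23. BMF in DMSO had 173 counts over the 6 CHX libraries and 3 over the 6 TCHX libraries, a ratio of 72.0 with an exact 95% interval of 24.2 to 353. The comparisons with CHX share their CHX libraries, so these values are side by side only. BAK1 in MAPKi was called lower (-0.55 ± 0.16, adjusted p = 2.52e-03, edgeR), was not called without replicate 3 (adjusted p = 0.0615) and changed sign with TMM scaling.

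The study's index of translation-dependent decay (TDD index) is the scaled count with TCHX minus that with T, divided by the initial count, and was averaged here over 3 and 5 h. It could be computed for 8 members, since BMF in DMSO and PMAIP1 in MAPKi started from too few counts. At the unadjusted p of at most 0.05 used in the study, 3 of 8 members differed between MAPKi and DMSO, beside 15.4% of 11422 genes (14.0% higher and 1.41% lower). The test was an ordinary, unmoderated t test in a linear model per gene with terms for time and replicate, fitted with limma. BCL2 (0.116, 0.191 and 0.196 in DMSO and 0.238, 0.594 and 0.924 in MAPKi) and BAX (0.157, -0.0398 and 0.156 against 0.154, 0.287 and 0.352) were higher, and BBC3 (0.407, 0.514 and 0.555 against 0.270, 0.299 and 0.381) was lower. The differences were 0.42 (unadjusted p = 0.0489), 0.17 (0.0481) and -0.18 (0.0293) by that t test, whereas an exact permutation test of 3 against 3 replicates could not go below p = 0.10. In each pretreatment the 3 and 5 h values of a replicate share the same 0 h library as divisor. The model treats them as independent. None was below an adjusted p of 0.05 (0.321, 0.319 and 0.262), beside 0.0963% of all genes, and each of the 3 calls was lost in at least 2 of the 3 fits that left out a replicate. BAK1 had the highest MAPKi mean after BCL2, 0.386 ± 0.0290 (SD, n = 3), and in DMSO BBC3 and BAK1 had the highest means, 0.492 ± 0.0765 and 0.476 ± 0.0468, against 0.122 ± 0.0343 for the median of all genes.

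**Figure D5:**
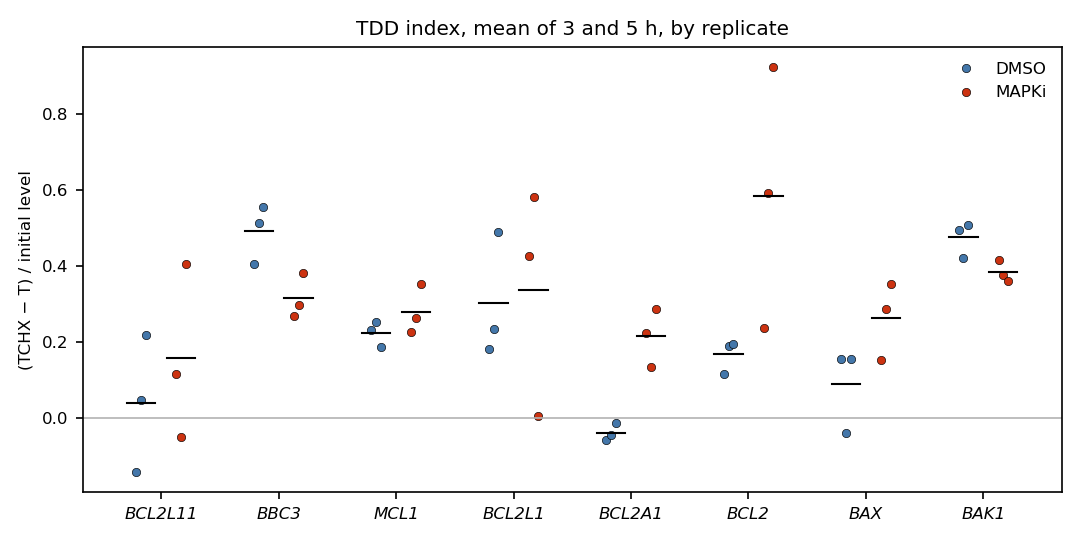
TDD index of the 8 members with enough initial counts, as the mean of 3 and 5 h in each replicate of DMSO (blue) and MAPKi (red), with bars for the means. BBC3 and BAK1 had the highest DMSO means (0.492 and 0.476), BCL2A1 in DMSO lay just below 0, and BCL2 in MAPKi spread from 0.238 to 0.924.

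Across the 32 groups, on the scale of stable genes, the highest mean of BMF (164 CPM), BBC3 (264 CPM), BCL2L1 (17.8 CPM) and BCL2A1 (70.7 CPM) was in MAPKi with 5 h of CHX. Those of PMAIP1 (123 CPM) and MCL1 (1711 CPM) were in DMSO with 5 h of CHX. The lowest means of MCL1 (3.20 CPM), BCL2L11 (5.10 CPM), BCL2 (1.34 CPM) and BAK1 (6.19 CPM) were in MAPKi with 5 h of T. Most neighbours in these orders could not be separated: of 31 neighbouring pairs of groups, between 26 (MCL1) and 31 (BCL2L11, BCL2 and BAX) had overlapping libraries. Some places depended on the scaling. With TMM scaling the highest mean of BCL2A1 was in MAPKi with 1 h of CHX (50.7 CPM). The lowest mean of BCL2L11 was then in DMSO with 5 h of TCHX (7.27 CPM).

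The genes whose group means ran most like those of a member were picked by Pearson's r of log2(CPM + 1) over the 32 groups. This is a description, since all genes share libraries, depth and treatments. They were ZEB2 (r = 0.976) and GRAMD2B (0.973) for BMF, STC2 (0.985) and USP53 (0.980) for PMAIP1, and VEZF1 (0.969) and ZC3H10 (0.968) for BBC3. For MCL1 they were ZNF200 (0.972) and WEE1 (0.971), for BCL2A1 MAF (0.989) and P2RX7 (0.986), and for BCL2 STK17A (0.962) and LOC102724265 (0.960). The members with small changes had lower values: SNAI2 (0.856) and PKDCC (0.851) for BCL2L11, HOXC6 (0.861) and IRS1 (0.859) for BCL2L1, FUZ (0.841) and PPP2R5C (0.827) for BAX, and OGFR (0.851) and TRIAP1 (0.843) for BAK1.

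Other genes of the pathway were counted from lists, whose counts at 0 h stand beside 21.9% of all genes higher and 24.0% lower. Of 11 tested other members of the family, 3 were higher and 2 lower in MAPKi at 0 h. BNIP3L, a mitophagy receptor, went from 70.8 ± 7.61 to 185 ± 5.98 CPM (SD, n = 3; log2 1.38, adjusted p = 2.32e-19, edgeR), and HRK, another BH3-only gene, from 5.09 ± 2.17 to 18.8 ± 2.24 CPM (adjusted p = 1.75e-07, edgeR). BAD, a BH3-only protein held by phosphorylation, rose by 0.85 (adjusted p = 2.70e-06, edgeR). The CHX response of BCL2L12, as MAPKi minus DMSO, differed by -0.91 on the log2 scale (adjusted p = 4.39e-12, edgeR). In a list of 11 genes, regulators of BH3-only genes together with others such as the p53 target CDKN1A, 7 were higher and 1 lower. JUN, an AP-1 subunit, rose from 22.0 ± 1.22 to 262 ± 10.2 CPM (log2 3.57), FOXO3 by 1.36 and CDKN1A by 1.08. The CHX response of JUN differed between pretreatments by -3.05 (adjusted p = 6.22e-31, edgeR), the same sign as that of MCL1.

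Downstream of the mitochondria, 13 apoptosome and caspase genes gave 2 higher and 4 lower in MAPKi. CYCS (cytochrome c) fell by 0.52 and VDAC1, a channel of the outer membrane, by 0.49 on the log2 scale. CYCS also had the lowest adjusted p of that list for a difference in CHX response (-0.53). Of 6 tested IAP genes, which restrain caspases, 0 were higher and 2 lower: BIRC5 (survivin) at -0.50 and BIRC2 (cIAP1) at -0.32, and the CHX response of BIRC5 differed by 0.35. Of 10 death receptor genes, 3 were higher and 2 lower, with CFLAR, an inhibitor of caspase-8, at 1.06, TNFRSF10A, a TRAIL receptor, at -1.91 and TRADD, an adaptor, at 0.78. FADD, another adaptor, differed between pretreatments in TCHX against T by 1.26 (adjusted p = 1.49e-05, edgeR). Of 8 genes for turnover or anchoring of BCL2 proteins, 1 was higher and 4 lower, with the MCL1 deubiquitinase USP9X at 0.53, the BIM anchor DYNLL1 at -0.65 and the MCL1 ligase HUWE1 at -0.56. USP9X differed in CHX response by -0.46. The medians of the 6 lists at 0 h ran from -0.14 to 0.48, beside 0.03 over all genes.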

How the data were processed

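Cytoplasmic RNA of 96 A375 libraries (32 groups of 3) was counted near transcript 3′ ends. The deposited values are raw read counts per gene, made by the authors with fastp 0.20.1, HISAT2 2.2.1 and HTSeq 0.13.5 on GRCh38.p13 per the submitters' processing notes. No use of molecular identifiers or strand setting is given in the sources used here, so intervals and floors (3 counts) cover counting error only. Total counts ran from 2381351 to 12520154, which limits BMF in DMSO and PMAIP1 in MAPKi.

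Groups came from the sample labels. One edgeR 4.0.16 quasi-likelihood model was fitted to all libraries and 14948 genes that passed filterByExpr, with TMM scaling, or with size factors from 36 stable genes (over 0.2 CPM, ratio of at least 1.1, under 10-fold) where triptolide entered. Calls were at a Benjamini-Hochberg adjusted p under 0.05. The TDD index was fitted with limma 3.58.1 and tested with an unmoderated t test on 11422 genes with at least 10 initial normalized counts. Alternatives were DESeq2 1.42.0, other size factors, no filter, a replicate block and leaving out each replicate number. R 4.3.3, Python 3.11.15 and pandas 2.3.3 were used, and the scripts were tested on simulated data. The 10 genes and the pathway lists were chosen with earlier results of these data known. The named list genes were those with the lowest adjusted p in a list. One gene that this rule would name is not reported here. Replicates of a group differed by more than sampling noise (chi-square per degree of freedom from 3.08 to 16.2 over 96 pairs). Promoters came from RefSeq and untranslated regions from GENCODE 44; MCL1 had no promoter entry. A few entries overlapping these genes, such as BCL2L1-AS1, had at most 11 counts per library.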

Additional observations from a re-analysis of the deposited data

Results flagged for a closer look

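Effects of MCL1, BCL2A1 and BMF differed between DMSO and MAPKi by an interaction term over 3 and 5 h in edgeR's quasi-likelihood fit. The CHX response of MCL1 differed by -2.34 (adjusted p = 3.65e-18) and that of BCL2A1 by 0.84 (adjusted p = 4.79e-03). The loss after triptolide differed by -0.88 for BCL2A1 (adjusted p = 0.0479), a call kept in 3 of 10 alternatives. For BMF the loss differed by -4.85 (adjusted p = 0.0138) and the difference of TCHX from T by 4.36 (adjusted p = 7.46e-03). Both BMF values rest on DMSO libraries with 0 to 5 counts and depend on the fit, so they are not folds.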

How the results depend on the processing

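Of 671 alternative values of called member differences, 614 kept their direction and their side of the threshold, 56 kept the direction only and 1 changed sign: BAK1 in TCHX against CHX in MAPKi, at 0.0214 with TMM scaling, a comparison added after the data were seen. Without the low-count filter, 1 member was called in vehicle 5 h against 0 h in DMSO (BMF) and 1 in CHX at 1 h in MAPKi (BMF). For T at 1 h it was 1 in DMSO (MCL1) and 2 in MAPKi (BBC3 and MCL1). For the CHX interaction it was 3 (BMF added), and for the TCHX interaction 2. In that order, 0.429%, 0.541%, 0.0613%, 0.0374%, 2.18% and 2.62% of all genes were called higher. Those called lower were 0.967%, 0.106%, 0.579%, 0.684%, 2.93% and 0.16%. DESeq2 also called 2 members in the TCHX interaction, beside 7.64% of all genes higher and 0.415% lower. The decay interaction called 1 member, in place of 2, with TMM, with total counts and with stable genes at 3 or 5 h. It also called 1 with the triptolide arm at 0 h as the initial level. In that order, 0.91%, 0.542%, 0.428% and 0.421% of all genes were called higher. Those called lower were 1.29%, 2.84%, 2.01% and 3.85%. When replicate 1, 2 or 3 was left out it called 0 to 1. All genes called were then 0.217%, 0.194% and 0.126% higher and 0.631%, 1.13% and 0.975% lower. TCHX against T in MAPKi called 6 in place of 10 with TMM, beside 18.9% of all genes higher and 15.1% lower. The TCHX interaction called from 0 to 1 when a replicate was left out. Without replicate 1, 2 or 3, 3.21%, 3.49% and 2.85% of all genes were called higher. Those called lower were 0.19%, 0.14% and 0.0862%. The TDD index called 1 in place of 3 with TMM and 1 in each fit without a replicate. Over all genes it called 1534 with TMM, and 1311, 1018 and 1385 without replicate 1, 2 and 3. The causes were not tested.

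For the TDD index and for the choice of stable genes, libraries were matched by replicate number. In the main edgeR fits the numbers were not taken as pairs. The labels give them no shared culture or batch, and only 360 of 1488 same-number pairs of groups correlated over 0.1 (median 0.0227). Yet 64 of 96 libraries were closest to their own number, and column names share a prefix by number, a hint that numbers may share a source. With the replicate block, T at 1 h in MAPKi called 1 member (BBC3), beside 0.0468% of all genes higher and 1.91% lower. CHX at 3 and 5 h in DMSO called 5, beside 18.8% higher and 14.2% lower. T at 3 and 5 h in MAPKi called 10, beside 1.28% higher and 57.0% lower. The other counts were as without the block. Without the block the TDD index called 2. Low counts limit BMF in DMSO and PMAIP1 in MAPKi.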
